A study of Saccharomyces cerevisiae with 8 samples.

Results

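Transcript starts that were highest in early meiosis were examined in transcript isoform sequencing (TIF-seq) libraries of budding yeast. TIF-seq reads the 5′ end and the 3′ end of the same RNA molecule, so that each start is known together with the end it belongs to. The 5′ ends were counted in bins of 100 nt on each strand of the 16 chromosomes and scaled to counts per 1000000 molecules of the library (CPM). An early meiotic start bin had at least 5 CPM in both T1 replicates, and its mean T1 level was at least 3 times the mean of each other stage plus 1 CPM. The rule found 1237 bins, out of 8539 bins that reached 5 CPM in both T1 replicates (14.5%) and 99030 bins with at least 1 molecule. Bins that touched or lay 1 bin apart on a strand formed 744 loci, of which 514 held a single bin and the largest held 11. The bins were chosen by their T1 levels and the ratios to the other stages, which are therefore given as a description without a test.

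The libraries came from diploid cells of the SK1 background (FW2795), an isolate that sporulates fast and in synchrony. *IME1* was driven by the copper-inducible *CUP* promoter (irt1::pCUP-3HA-IME1), *NDT80* by the *GAL* promoter (ndt80::pGAL-NDT80), and a fusion of Gal4 and the estrogen receptor, expressed from the *GPD1* promoter (ura3::pGPD1-GAL4(848).ER), made *NDT80* inducible with β-estradiol. The 4 stages share this genotype, which also carries ho::LYS2 and the markers lys2, ura3, leu2::hisG, his3::hisG and trp1::hisG, and each stage has 2 replicates. The pm pool held cells from 0 to 2 h in sporulation medium (SPO), before 50 μM CuSO4 was added at 2 h. The T1 pool held cells from 3 to 6 h in SPO with copper, which enter meiosis. The T2 pool held cells from 7 to 9 h in SPO, after 1 μM β-estradiol at 6 h, which divide and form spores. The T3 pool held cells moved at 6 h from SPO to rich medium and sampled after 15 to 120 min, which return to mitotic growth. The hours given are those of the study's time course that fall within each stage. Equal amounts of RNA of a pool's time points were mixed, so each library is an average over them. Copper, the induction of *IME1* and the later time in SPO came together, and their parts in a difference between T1 and pm cannot be told apart. Ime1 and Ndt80 were induced at set times rather than by the cells' own signals, which limits the cells as a model of meiotic entry in wild-type yeast.

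Entry into meiosis in budding yeast is set off by Ime1, which is recruited to promoters by the DNA-binding protein Ume6 and turns the early meiotic genes on. These genes serve premeiotic DNA replication, recombination and the pairing of homologous chromosomes, and many of them are shut off again before the meiotic divisions, which Ndt80 drives. A gene can also be given a new, upstream start at a stage. Some of these long transcripts carry upstream reading frames that keep the protein from being made, and their transcription can silence the start downstream. Other new starts lie inside a gene and would give shortened messages.

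The libraries held between 552357 molecules in T3 replicate 2 and 1820826 molecules in T1 replicate 1, so that 3 molecules, the upper limit for a start with no molecule, stood for between 1.65 and 5.43 CPM. In replicates 1 and 2, the bin levels had Pearson correlations between 0.81 in T2 and 0.92 in T3 across the 11405 bins with a mean of 5 molecules, which are not independent of each other. The spike-in RNA pGIBS-LYS was read from within 5 nt of position 18, its commonest 5′ end in every library, in 43.2% of its molecules in T1 replicate 1. The share was 57.5% in T1 replicate 2, and 57.9% to 87.5% in the other 6 libraries. The spike-in pGIBS-PHE was so read in 322 of 1642 molecules in T1 replicate 1 and 372 of 748 in T1 replicate 2. In pm it was 236 of 286 in replicate 1 and 170 of 405 in replicate 2. For pGIBS-THR it was 3 of 110 in T1 replicate 1 and 3 of 37 in T1 replicate 2, so many 5′ ends lay inside these RNAs. The 100 fullest bins held 23.9% and 24.1% of all molecules in the T1 libraries, and between 33.5% and 49.4% in the other stages. In pooled cultures, fewer cells that use a start and fewer molecules per cell cannot be told apart, nor can lower output of a start and higher output of other transcripts, since levels are shares of a total.

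The early meiotic start bins took 10.7% and 11.5% of all molecules in the 2 T1 libraries. Their share was 1.99% and 1.13% in pm, 1.90% and 2.46% in T2 and 0.930% and 0.705% in T3. The median level of a bin was 1.65 and 2.29 CPM in pm, 26.4 and 15.6 CPM in T1, 2.40 and 3.87 CPM in T2 and 1.17 and 0 CPM in T3. T1 levels ran from 5.34 to 4203 CPM with a median of 21.2 CPM over the bins, and the ratio of T1 to the highest other stage plus 1 CPM had a median of 4.07 and a maximum of 21.2. The second-highest stage was T2 for 754 bins, pm for 365 and T3 for 118. No molecule was found in either pm library for 220 bins, in either T3 library for 419, and in any of the 6 libraries outside T1 for 15.

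**Figure D1:**
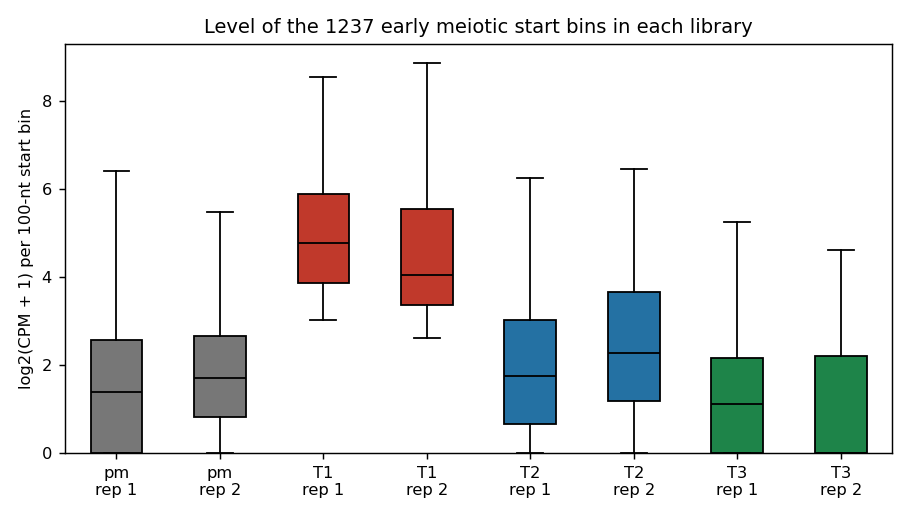
Level of the 1237 early meiotic start bins in each library, as log2(CPM + 1). Boxes span the quartiles, lines mark medians and whiskers reach the 5th and 95th percentiles; the 2 T1 libraries stand apart from the other 6 because the bins were chosen for this.

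The number of early meiotic start bins depended on how the libraries were scaled and on counting error. With libraries scaled by the median of ratios over bins, which sets the typical bin equal rather than the total, 337 of the 1237 bins still met the rule (27.2%), and no other bin did. When the T1 level was set to its lower 95% Poisson bound, and each other stage to its upper bound, 314 bins met the ratio, of which 199 were among those 337. From T1 replicate 1 alone, without T1 replicate 2, the rule found 2393 bins. Just inside the ratio lay chr15:363101-363200 (+), chr13:523401-523500 (+) and chr13:719301-719400 (−), with ratios of 3.001 to 3.002. Just outside lay chr14:401101-401200 (+), chr2:487501-487600 (+) and chr13:794701-794800 (+), with ratios of 2.995 to 2.998. The last of these had 1033 and 830 CPM in the T1 libraries, so strong starts also lie just under the threshold. A further 485 bins at the minimum had ratios between 2.5 and 3, and 354 of the early meiotic start bins had ratios under 3.5. At the limit of 5 CPM, chr16:319701-319800 (+) was just inside, with 14.8 and 5.20 CPM in T1, and chr1:112201-112300 (+) just outside, with 4.94 and 6.23 CPM.

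A choice by the libraries of one replicate number was looked up in the libraries of the other number, which had not been used for it. Of 1201 bins that met the rule in replicate 2 libraries alone, 443 (36.9%) met it in replicate 1 libraries, against 14.4% of the 9027 bins that reached 5 CPM in T1 replicate 2 without meeting the rule. Their median ratio of T1 to the highest other stage plus 1 CPM in replicate 1 libraries was 2.42, against 0.90 for the bins not chosen. In the other direction, 443 of 2883 bins (15.4%) met the rule again, against 5.85% of 9788 bins, with median ratios of 1.17 and 0.62. In both directions the share that met the rule again was above that of the bins not chosen. Choice and look-up both used libraries scaled by their totals, so a shift of the totals common to both T1 libraries enters both. The look-up was not made with median-of-ratios scaling, and its shares are a description.

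The strongest early meiotic start lay at chr5:541701-541800 (+), with its commonest 5′ end at position 541720. It had 4.95 and 1.53 CPM in pm, 3714 and 4692 CPM in T1, 406 and 702 CPM in T2 and 7.0 and 5.43 CPM in T3. Its molecules had a median length of 1182 nt in T1, and 96.6% of them ended at chr5:542871-543129. This start was nearly silent before copper was added and after the return to growth, remained at a lower level in T2, and met the rule under both scalings. The start at chr8:486101-486200 (+) was the second strongest, with 755 and 537 CPM in pm, 3015 and 3591 CPM in T1, 1015 and 966 CPM in T2 and 361 and 319 CPM in T3. In contrast to the first locus, it was in use at every stage, and met the rule only when libraries were scaled by their totals.

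At 9 of the 10 strongest loci the leading start had 6.10 CPM or more in both pm libraries, so these were starts already in use before copper was added. At chr4:797301-797400 (+) the level was 393 and 185 CPM in pm, 2357 and 3327 CPM in T1, 587 and 596 CPM in T2 and 88.7 and 57.9 CPM in T3. At chr7:362901-363000 (+) it was 54.4 and 6.10 CPM in pm, 1359 and 1883 CPM in T1, 207 and 469 CPM in T2 and 21.0 and 10.9 CPM in T3. At chr4:130701-130800 (+) it was 56.1 and 28.2 CPM in pm, 1054 and 1463 CPM in T1, 218 and 302 CPM in T2 and 9.34 and 7.24 CPM in T3. These 3 starts share the order T1, T2, pm, T3 of their stage means.

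At some of the other strong loci another stage came second. At chr2:224901-225000 (+) the level was 274 and 234 CPM in pm, 2582 and 2413 CPM in T1, 132 and 190 CPM in T2 and 682 and 693 CPM in T3, so T3 came second. At chr10:327101-327200 (−) it was 592 and 186 CPM in pm, 1120 and 1378 CPM in T1, 173 and 152 CPM in T2 and 15.2 and 3.62 CPM in T3, so pm came second. The T1 replicates differed most at chr15:608301-608400 (−), with 2973 and 1225 CPM in T1, while T2 came second with 939 and 368 CPM. Its T1 and T2 values did not overlap, but it did not meet the ratio under the counting bounds. The loci led by chr4:1226301-1226400 (+) and chr15:983201-983300 (−) had 1090 and 1657, and 1030 and 1674 CPM in T1, and each had fewer than 380 CPM in every other library. T2 came second at both. Of the 10 strongest loci, only that on chromosome 5 met the rule with median-of-ratios scaling.

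**Figure D2:**
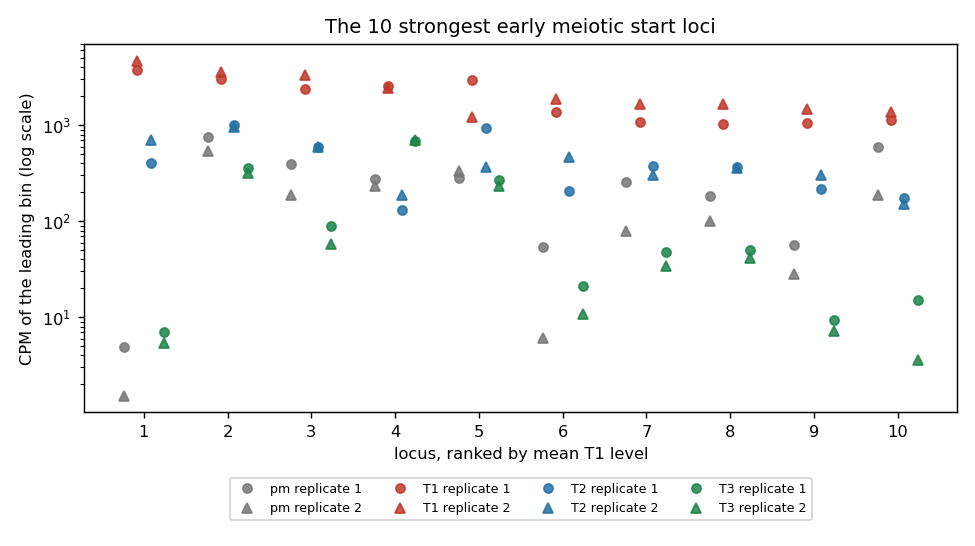
CPM (log scale) of the leading start bin at the 10 loci with the highest mean T1 level, in each of the 8 libraries. Circles are replicate 1 and triangles replicate 2; from left to right the loci lead with 4203 CPM in T1, and locus 1 (chromosome 5) has under 5 CPM in both pm libraries while locus 2 (chromosome 8) has 755 and 537.

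A smaller group of starts was not detected in pm at all. The strongest was chr8:121101-121200 (+), with 0 molecules in both pm libraries, 754 and 962 CPM in T1, 222 and 184 CPM in T2 and 3.5 and 1.81 CPM in T3. Against the 1.57 CPM that 3 molecules over both pm libraries allow, its mean T1 level was at least 548-fold higher. The start at chr6:196801-196900 (+) had 0 molecules in both pm and both T3 libraries, 307 and 436 CPM in T1 and 106 and 77.4 CPM in T2, at least 238-fold higher in T1 than in pm. Because of its T2 level, this start did not meet the rule with median-of-ratios scaling, nor the ratio under the counting bounds. The start at chr2:56101-56200 (+) had 0 molecules in pm, 337 and 280 CPM in T1, 16.8 and 128 CPM in T2 and 3.5 and 0 CPM in T3, at least 197-fold higher in T1 than in pm. All 3 kept a lower level in T2, and the T2 replicates differed strongly at the third.

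The highest ratios were found at weak or moderate starts. The start at chr13:827801-827900 (−) had a ratio of 21.2, with 0 and 0.763 CPM in pm, 54.4 and 135 CPM in T1, 1.80 and 5.16 CPM in T2 and 0 CPM in both T3 libraries. Its transcript was short, with a median length of 344 nt, and no other start of 5 CPM or more shared its 3′ region beyond the bins beside it. The start at chr15:958401-958500 (−), with a ratio of 17.2, had 1.65 and 0.763 CPM in pm, 45.6 and 30.1 CPM in T1, 0 and 1.29 CPM in T2 and 0 CPM in T3, and its transcript was 1181 nt long in the median. The start at chr15:360701-360800 (+) was an exception in level, with 13.2 and 14.5 CPM in pm, 197 and 243 CPM in T1, 22.2 and 10.3 CPM in T2 and 15.2 and 7.24 CPM in T3. Its transcripts began sharply, 48.7% of them at position 360724. The 10 loci of highest ratio had ratios between 12.8 and 21.2, and all 10 met the rule under both scalings and under the counting bounds. They were picked for this ratio in the same counts, so that they passed follows largely from the choice.

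The 3′ ends placed each start within a transcription unit. Neighbouring 3′ ends no more than 50 nt apart made up a 3′ region, and a median of 91.2% of a start bin's T1 molecules ended in its commonest region. The early meiotic start bins used 656 of the 14164 regions, and 408 regions held 1 such bin while 248 held between 2 and 11. A start bin was called sole if no other start of 5 CPM or more in any stage, beyond the bins beside it, ended in the same region, which held for 281 bins (22.7%). It was called upstream or internal by its place relative to the strongest such start, which gave 471 upstream (38.1%) and 477 internal bins (38.6%), and 8 had no 3′ region. Among the 6901 other T1 start bins (at 5 CPM or more in both T1 replicates and not beside an early meiotic one), 39.4% were sole, 33.4% upstream and 26.4% internal. Of the upstream bins, 247 were the strongest start of their region and 224 were weaker than the start downstream. Of the internal bins, 72 were the strongest start and 405 were weaker than the start upstream, and for 280 of the 477 the stronger or compared start was itself an early meiotic start bin. This split by strength was chosen after the values were seen.

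Many internal starts formed trails behind a strong early meiotic start. In the 3′ region led by chr4:797301-797400 (+), 11 start bins met the rule. The leading bin gave 2178 and 3159 CPM in T1 to this region, and the bin 700 nt downstream 112 and 67.5 CPM. In the region led by chr7:362901-363000 (+), the leading bin gave 1101 and 1644 CPM in T1 and the bin 600 nt downstream 213 and 441 CPM. In the region led by chr7:162701-162800 (−), they gave 485 and 833 CPM and, 600 nt downstream, 151 and 87.3 CPM. Each region therefore had a second rise of starts inside the transcript, with all pm and T3 values there under 10 CPM. In the 121 regions with at least 3 early meiotic start bins, 66.7% and 74.2% of the T1 molecules began within 1 bin of the leading start, against 54.2% to 65.7% in the other 6 libraries. The leading start is the strongest T1 bin among bins chosen for T1, so a higher share around it in T1 follows from the choice.

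**Figure D3:**
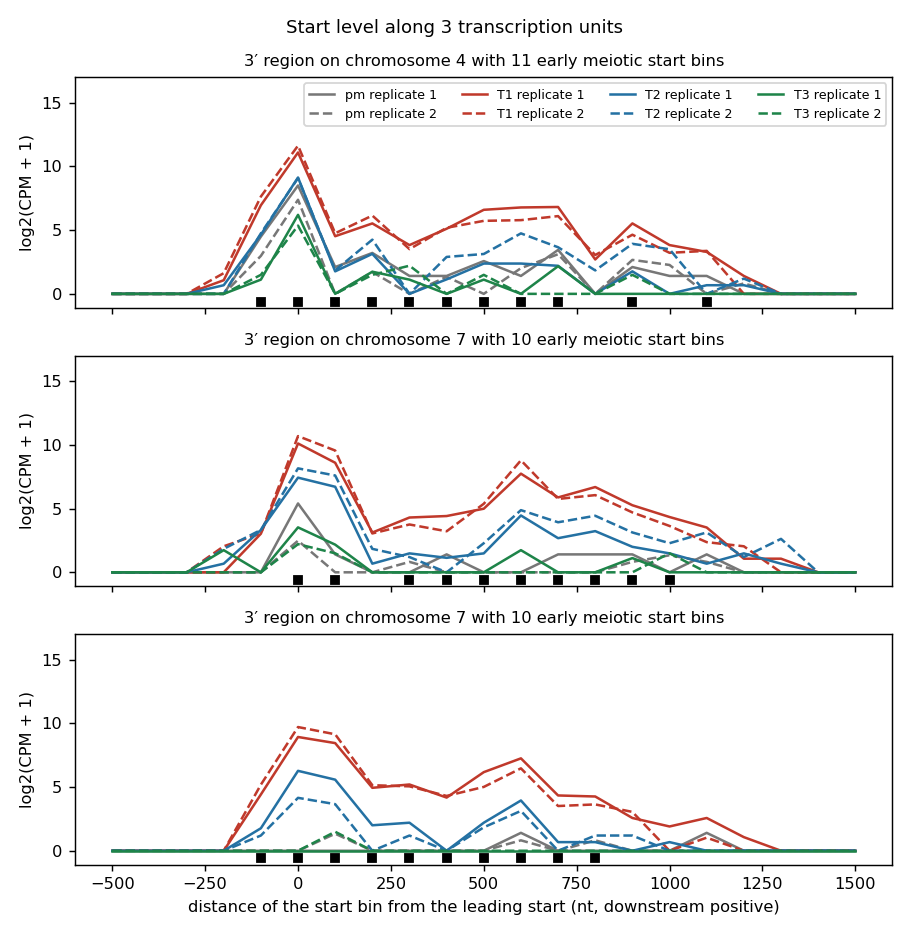
Start level along 3 transcription units, as log2(CPM + 1) in 100-nt bins against the distance from the leading start, for molecules ending in the unit's 3′ region. Solid lines are replicate 1, broken lines replicate 2, and black squares mark early meiotic start bins. In these units, chosen after their values were seen, T1 shows a main peak at 0 and a lower one at 600 to 700 nt.

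The balance of the T1 replicates differed with the place of a start. The level in T1 replicate 1 was 1.78 times that in T1 replicate 2 in the median over the 405 weaker internal bins, and 2.16 times over the 72 internal bins that were the strongest of their region. It was 0.97 times over the sole bins and 0.90 times over the upstream bins that were the strongest of their region. Among the other T1 starts, the medians were 1.59 for weaker internal, 1.11 for strongest internal, 0.90 for sole and 0.91 for strongest upstream bins. Replicate 1 was higher in 83.6% of the internal early meiotic start bins and in 47.0% of the sole ones. T1 replicate 1 is also the library in which the spike-in RNA pGIBS-LYS was read from its commonest 5′ end least often. The part of shortened RNA in the internal starts was not tested.

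**Figure D4:**
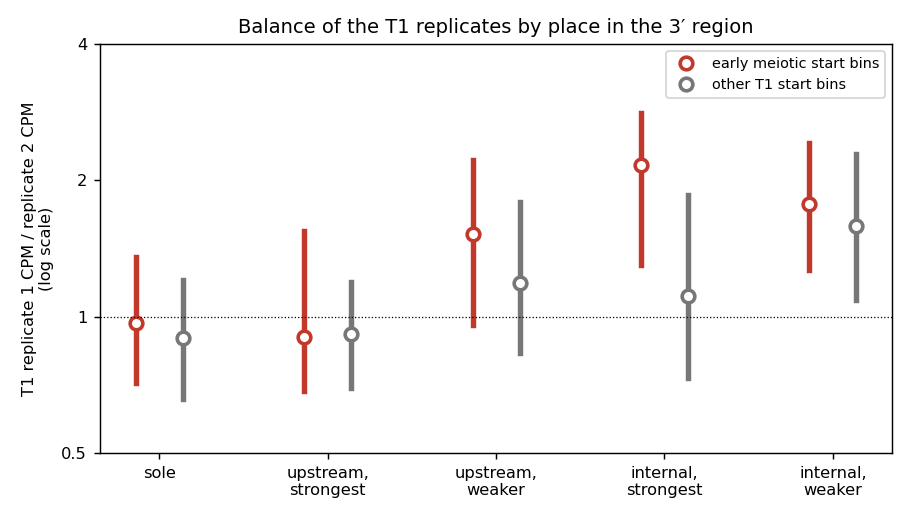
Level in T1 replicate 1 over that in T1 replicate 2 (log scale) by place in the 3′ region. Circles are medians over bins and bars the quartiles, for early meiotic start bins (red, left) and other T1 start bins (grey, right); internal early meiotic bins have medians of 1.78 and 2.16, sole ones 0.97.

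Molecules from the early meiotic starts were longer than those from other T1 starts. Their median length was 1051 ± 30.4 nt in T1, against 901 ± 4.24 nt for the other T1 start bins (SD over the same 2 T1 libraries). The medians were 1029 and 1072 nt against 898 and 904 nt, so the 2 sets did not overlap, although 2 libraries a side allow no exact permutation p below 0.33. With each bin weighted equally and the T1 libraries pooled, the median was 923 nt against 834 nt, so the difference was smaller when strong starts did not weigh more. By place, the T1 library means were 1149 nt for upstream, 949 nt for sole and 748 nt for internal bins. An internal start lies nearer to the shared 3′ region than its partner, so this order follows in part from the classes. With each bin weighted equally, the medians were 1107.5, 959 and 728 nt, against 995, 839 and 620 nt in the other T1 starts. The longest transcripts of loci with at least 20 CPM came from chr3:108601-108700 (−), with a median of 1615 nt. It had 19.8 and 17.5 CPM in pm, 113 and 123 CPM in T1, 12.6 and 28.4 CPM in T2 and 21.0 and 19.9 CPM in T3. The shortest came from an internal start at chr16:566301-566400 (−), with a median of 235 nt and 34.1 and 13.5 CPM in T1, followed by chr13:827801-827900 (−) and by the sole start at chr5:391701-391800 (+), with 347 nt and 45.6 and 41.6 CPM in T1.

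The starts were spread over several positions. A median of 18.2% of a bin's T1 molecules began at its commonest position, against 25.8% for the other T1 start bins, and 40.4% began within 5 nt of it, against 46.2%. Among bins with at least 20 CPM in T1, the shares at the commonest position were 20.9% for the 654 early meiotic and 27.9% for the 3443 other bins. By place, the share was 25.6% for sole and 24.2% for strongest upstream early meiotic bins, and 13.3% for weaker internal ones, against 30.0%, 29.7% and 15.6% in the other T1 starts. The early meiotic starts had the lower median in each of these 3 places, with no test made over bins. At least 2 regions of 3′ ends were used by 14.6% of the early meiotic start bins and 15.3% of the others.

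The levels of these starts outside T1 were compared between pm, T2 and T3, which the rule did not contrast with each other. It did limit all 3 levels, since T1 had to be at least 3 times as high. Molecules per bin were tested with limma voom in one fit of the 8 libraries, and calls needed a 2-fold change together with a p-value below 0.05 after Benjamini-Hochberg adjustment. Of the 1237 early meiotic start bins, 970 reached the mean of 5 molecules per library needed for the test, in part through their T1 level, among 11405 bins in all. In T2 against pm, 155 of the 970 were higher (16.0%), while 19.9% of all bins tested were called higher, and 0 were lower, while 8.75% of all bins were called lower. At an unadjusted p under 0.05, 231 were higher and 2 lower, and limma-trend also called 0 lower. Scaling by the total called 2 lower, with a median log2 change of 0.46 for the early meiotic start bins. Some were also called lower with either T2 replicate left out. The median log2 change was 0.90 for these bins and 0.30 for all bins, or 0.83 and 0.29 with bins that had no molecule in a stage set at the limit of 3 molecules. In a fit of only the pm and T2 libraries, 429 of these bins could be tested, of which 64 were higher (14.9%) and 0 lower, while 20.5% of all bins tested there were called higher and 7.58% lower. As both the filter and the rule act on these shares, nothing is read from their difference to all bins. Without pm replicate 2, the number called fell to 37.

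The starts that rose in T2 relative to pm included the 3 strong starts without a pm molecule. Against the limit of 3 molecules, T2 was at least 130-fold higher than pm at chr8:121101-121200 (+), at least 58.6-fold at chr6:196801-196900 (+) and at least 46.2-fold at chr2:56101-56200 (+), with an adjusted p under 0.05 by limma voom at each. At chr5:541701-541800 (+) the log2 change was 7.80 ± 0.79 (SE), with the 406 and 702 CPM in T2 against 4.95 and 1.53 CPM in pm given above.

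In T3 against T2, 155 of the 970 bins were lower (16.0%), while 28.8% of all bins tested were called lower, and 5 were higher, while 15.3% of all bins were. The median log2 change was -0.89 for both, or -0.42 and -0.63 with bins at the limit. Of the 970, 252 had no molecule in one of the 2 stages. More early meiotic start bins were called higher with T2 replicate 2 left out. In a fit of only the T2 and T3 libraries, 112 of 377 bins were lower (29.7%) and 3 were higher (0.796%), while 32.4% of all bins tested there were called lower and 20.3% higher, and the 16.0% above is not read as a difference from all bins. Among starts with a T3 molecule, those with the largest falls were almost lost in T3. At chr16:169001-169100 (+) T3 had 1.17 and 1.81 CPM against 220 and 168 CPM in T2, and T1 had 856 and 958 CPM (log2 change -6.24 ± 0.82, SE). At chr15:58901-59000 (+), a sole start, T3 had 1.17 and 0 CPM against 125 and 144 CPM in T2, and T1 had 594 and 470 CPM (log2 change -6.49 ± 0.80, SE). The start at chr2:224901-225000 (+) was called in the other direction, with 682 and 693 CPM in T3 against 132 and 190 CPM in T2 (log2 change 2.37 ± 0.46, SE), as was chr14:482301-482400 (+), with 61.9 and 63.4 CPM in T3 against 8.99 and 9.03 CPM in T2 (log2 change 2.98 ± 0.78, SE). The number called fell to 38 without T3 replicate 1 and to 40 without T3 replicate 2.

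In T3 against pm, 24 of the 970 bins were higher (2.47%) and 32 were lower (3.30%), while 12.3% of all bins tested were called higher and 13.5% lower. Of the 970, 89 had no molecule in either stage. In a fit of only the pm and T3 libraries, 9 of 258 bins were higher (3.49%) and 30 were lower (11.6%), while 18.1% of all bins tested there were called higher and 24.3% lower. The filter and the rule act on these shares too, and nothing is read from their difference to all bins. The largest fall was at chr15:222001-222100 (−), which had 1.17 and 1.81 CPM in T3 against 200 and 115 CPM in pm, and 514 and 676 CPM in T1 (log2 change -5.36 ± 0.83, SE). The largest rise was at chr10:572501-572600 (−), an internal start with 14 and 14.5 CPM in T3 and no molecule in pm, at least 9.10-fold higher in T3. Scaled by the totals, the split was 10 higher and 61 lower, and the median log2 change of all bins was -0.74, against -0.03 with median-of-ratios scaling (-0.18 against 0.30 in T2 against pm, -1.12 against -0.89 in T3 against T2). The number called fell to 37 without pm replicate 1, to 30 without pm replicate 2, to 10 without T3 replicate 1 and to 8 without T3 replicate 2. The split turned to 6 higher and 4 lower without T3 replicate 1, and to 6 higher and 2 lower without T3 replicate 2.

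The other starts of the same transcription units were then compared between stages. For each 3′ region, molecules that began in an early meiotic start bin or within 100 nt of one were left out, and the rest were tested with limma voom across the 6068 regions with a mean of 5 molecules, of which 440 held early meiotic starts. The 3 contrasts share the T1 libraries. In T1 against pm, 50 of the 440 regions were higher (11.4%), while 4.7% of all regions tested were called higher, and 4 were lower (0.909%), while 8.5% of all were. The median log2 change was 1.28 for the 440 and 0.09 for all. In T3 against T1, 122 were lower (27.7%), while 13.6% of all regions were called lower, and 8 were higher (1.82%), while 15.9% of all were. In T2 against T1, 7 were higher (1.59%), while 11.2% of all regions were, and 11 were lower (2.50%), while 1.02% of all were, with medians of -0.74 for the 440 and 0.20 for all. With regions without a molecule in a stage set at the limit of 3 molecules, the medians were -1.65 for the 440 and -0.29 for all in T3 against T1, against -1.87 and -0.40 as fitted. The rest of the unit was thus also called higher in T1 more often than in all regions, and these molecules include starts near to meeting the rule. The regions were chosen for a start high in T1, and they could pass the filter through their other T1 molecules. The difference to all regions is therefore given as a description.

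Molecules that start downstream of an early meiotic start can be its own shortened copies, and the 2 cannot be told apart. The test was therefore repeated with only the molecules that began upstream of every early meiotic start of the region, an alternative chosen after the data were seen. In T1 against pm, 27 of 144 regions were then higher (18.8%), while 4.75% of the 5772 regions tested were called higher, and 1 was lower, while 8.14% of all were. In T2 against T1, 1 was higher, while 11.3% of all were, and 10 were lower (6.94%), while 1.23% of all were. In T3 against T1, 2 were higher, while 16.0% of all were, and 67 were lower (46.5%), while 14.4% of all were called lower. These 144 regions could also pass the filter through their T1 molecules, so their shares too are a description. Some of these regions held an upstream start that was itself strong in T1 without meeting the rule, which counts the molecules of every 3′ end. At chr16:318371-318543 (−), for example, the upstream molecules had 609 and 1166 CPM in T1 against 0 and 0.763 CPM in pm, while the strongest internal bin that met the rule, chr16:319001-319100 (−), had 33.0 and 18.7 CPM in T1. The upstream molecules of this region had 266 and 148 CPM in T2. At chr7:439589-439730 (+), upstream molecules had 197 and 321 CPM in T1 and none in pm or T3, at least 166-fold higher in T1 than in pm.

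The number of regions called moved with nearly every library left out. The 54 calls became 26 without pm replicate 1, 7 without pm replicate 2, 10 without T1 replicate 1, 12 without T1 replicate 2, and 22 without either T3 replicate in turn, while they became 130 without T2 replicate 1 and 135 without T2 replicate 2. Of the 130 calls in T3 against T1, 56 were left in number without T1 replicate 1, 83 without T1 replicate 2, 22 without T3 replicate 1 and 18 without T3 replicate 2, with 213 and 212 without T2 replicates 1 and 2. The 18 calls in T2 against T1 became 0 without T1 replicate 1, with 25 regions at an unadjusted p under 0.05, 1 without T1 replicate 2, 46 without T2 replicate 2 and 6 without either T3 replicate. The direction of these calls was not stable. Against 7 higher and 11 lower, the split was 6 and 3 with the replicate block, 5 and 5 with limma-trend, 5 and 1 without either T3 replicate, and 11 and 8 without T2 replicate 1. When libraries were scaled by their totals, 65 regions were called, 3 higher and 62 lower, a scaling that lowered the median of all regions to -0.64, against 0.20. The same scaling lowered it to -1.58, against -0.40, for T3 against T1 and raised it to 0.54, against 0.09, for T1 against pm. In T3 against T1 it called 0 of the 440 regions higher and 275 lower.

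At 3 regions an upstream early meiotic start came with fewer molecules from the other starts. At chr2:354766-354889 (−), the start at chr2:356001-356100 had 0 and 1.53 CPM in pm, 85.7 and 38.4 CPM in T1, 21.0 and 16.8 CPM in T2 and 1.17 and 0 CPM in T3. The other molecules of the region, most of them from a start 400 nt downstream, had 1046 and 452 CPM in T1 against 6887 and 12319 CPM in pm (log2 change -4.14 ± 0.47, SE, adjusted p under 0.05, limma voom). They stayed low in T2, with 640 and 400 CPM, and in T3, with 684 and 728 CPM, where the upstream start was nearly absent. The upstream start was thus a small part of the unit in T1.

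At chr12:897998-898132 (+) the upstream start outnumbered the rest. The start at chr12:897001-897100 had 18.1 and 5.34 CPM in pm, 135 and 178 CPM in T1, 54.6 and 40.0 CPM in T2 and 0 CPM in both T3 libraries. The other molecules, from 400 nt downstream, had 17 and 15.6 CPM in T1 against 115 and 223 CPM in pm (log2 change -3.77 ± 0.67, SE), and 1.20 and 3.87 CPM in T2. Neither had a molecule in T3. At chr7:724473-724505 (−), the start at chr7:725401-725500 had 18.7 and 13.5 CPM in T1 against 0 and 7.63 CPM in pm, while the other molecules had 40.6 and 22.9 CPM in T1 against 74.2 and 209 CPM in pm (log2 change -2.51 ± 0.73, SE). The pm and T1 values of the other molecules did not overlap in any of these 3 regions. The fourth region called lower, chr16:829232-829411 (+), held an internal early meiotic start, with 110 and 71.7 CPM in T1 against 4.95 and 48.1 CPM in pm, and its other molecules had 1124 CPM in both T1 libraries against 2279 and 4545 CPM in pm.

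**Figure D5:**
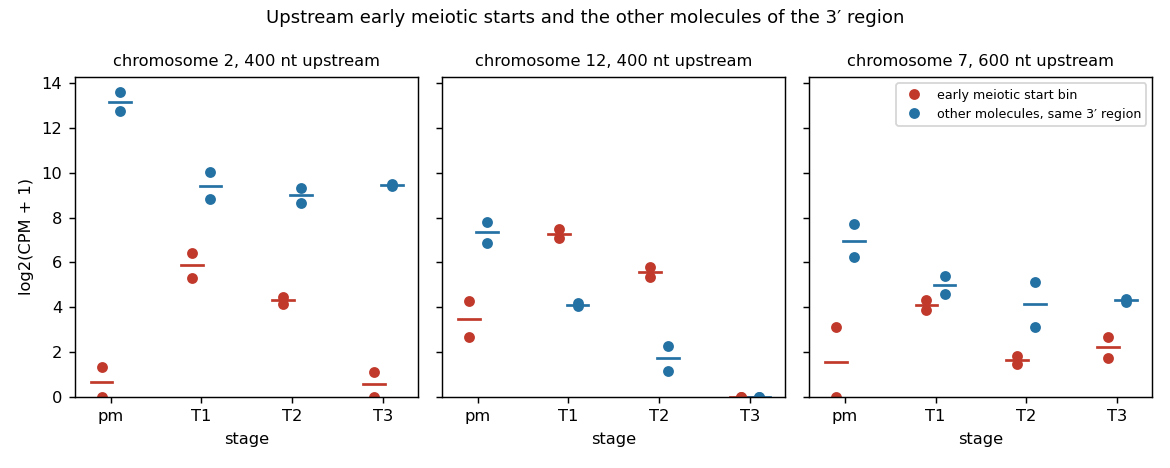
Level of an upstream early meiotic start bin (red) and of the other molecules of the same 3′ region (blue) at the 3 regions called lower in T1 against pm with an upstream start, as log2(CPM + 1) per stage. Points are the 2 replicates and bars their means; on chromosome 12 the red points lie above the blue ones in T1 (135 and 178 against 17 and 15.6 CPM), on chromosome 2 far below them.

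Such units were few. Of the 471 upstream start bins, 233 lay upstream of a start that did not meet the rule, at a median distance of 400 nt, and that start was the stronger one for 100. It peaked outside T1 for 53 of the 233, in pm for 17, in T2 for 23 and in T3 for 13. An example for T3, chosen after its values were seen, was chr12:858701-858800 (+), with 21.4 and 10.7 CPM in pm, 57.7 and 81.1 CPM in T1, 5.40 and 19.3 CPM in T2 and 12.8 and 10.9 CPM in T3. The start 300 nt downstream had 228 and 211 CPM in pm, 85.7 and 88.3 CPM in T1, 19.8 and 65.8 CPM in T2 and 169 and 402 CPM in T3. With median-of-ratios scaling, the molecules of this region outside the early meiotic start were higher in T3 than in T1 (log2 change 2.68 ± 0.61, SE, adjusted p under 0.05, limma voom). Scaled by the totals, 0 of the 440 regions with early meiotic starts were called higher in T3 against T1. At chr8:442187-442265 (+), the upstream start at chr8:440801-440900 had 52.7 and 39.5 CPM in T1, and the other molecules had 161 and 206 CPM in T2 against 30.2 and 21.8 CPM in T1 (log2 change 3.59 ± 0.61, SE).

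Starts on the other strand, within the span of the transcript, were about as frequent as for the other T1 starts. They reached 5 CPM in T1 for 130 early meiotic start bins (10.5%) and for 11.0% of the other T1 start bins. By place, the shares were 18.5% and 11.0% among sole, 8.92% and 12.5% among upstream, and 7.13% and 8.90% among internal bins. The share of early meiotic start bins was 10.3% in pm, 10.5% in T1, 10.7% in T2 and 4.45% in T3. For the other T1 start bins it was 12.5%, 11.0%, 12.3% and 4.52%, so the lower share in T3 was common to both. Most antisense molecules were found at chr8:164801-164900 (−), a sole start with 34.1 and 34.3 CPM in T1 whose span held 5161 CPM of antisense starts in the T1 mean. At chr6:196801-196900 (+), the span held 3581 CPM of antisense starts in T1, and at chr13:653701-653800 (−) 678 CPM. The latter span, 1454 nt, rests on few molecules. This start had 21 molecules in T1 with a median length of 970 nt, and 14.3% of them ended in its commonest 3′ region. At each of these 3 loci the antisense level exceeded that of the start itself in T1.

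The early meiotic starts lay on both strands, 626 on the plus and 611 on the minus strand, and on all 16 chromosomes. Their share of the bins at 5 CPM or more in both T1 replicates ran from 5.97% on chromosome 1 (8 of 134) to 19.0% on chromosome 8 (72 of 379). Within 20 kb of the outermost 5′ or 3′ end found on a chromosome lay 19 bins. Among the 657 leading bins, one for each 3′ region and one without a region, 9 pairs of divergent starts lay within 500 nt of each other. At the pair of most balanced level, chr2:56101-56200 (+) and chr2:55801-55900 (−), 302 nt apart, the mean T1 levels were 308 and 166 CPM. In the other 8 pairs, one of the starts had at least 4 times the T1 level of its partner.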

How the data were processed

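TIF-seq libraries of 8 samples (4 stages, 2 replicates each) were analysed. Per the labels, RNA degradation products were dephosphorylated, caps were removed and an adaptor with a molecular identifier was joined to the freed 5′ ends, which selects capped RNA. The authors mapped the reads to an SK1 genome assembly with spike-in sequences and deposited 1 line per uniquely mapped molecule, with the positions of both ends. The deposited mapping quality score was the same in every line and was not used. The submitters' processing notes list cutadapt 1.16, STAR 2.5.3a and bedtools, without a role for each. Neither an annotation nor the sequence of this assembly was at hand, and loci therefore carry the files' coordinates, without gene names or motif searches.

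From these lines, 5′ ends were counted per 100-nt bin and 3′ ends, at positions with at least 5 molecules, were joined into regions within 50 nt. Levels are CPM of a library's yeast molecules. Bins and regions with a mean of 5 molecules per library were tested with limma 3.58.1 (voom, median-of-ratios scaling, stage as the only term) in R 4.3.3, which was first tested on simulated data. Intervals and limits cover counting error only. The labels do not say whether replicates came from separate cultures, so p-values measure the spread between these libraries. Loci were named by rule: the 10 strongest, the 10 of highest ratio, those beside the thresholds, up to 5 per contrast and direction with the largest change, the 3 longest and 3 shortest, and the 3 with most antisense molecules. The other loci named, the units in the plot of start levels along transcription units and those without a pm molecule among them, were chosen after their values were seen. The early meiotic start bins, lists and tests were chosen with earlier results of these data known. Alternatives were other thresholds, bins, scalings, filters, fits and left-out libraries.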

Additional observations from a re-analysis of the deposited data

How the results depend on the processing

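The number of early meiotic start bins, 1237, was 2409 at a ratio of 2, 375 at a ratio of 5, 337 with median-of-ratios scaling, 314 under the counting bounds, and 2150 with each pair of ends counted once, of which 962 were among the 1237. Leaving out 1 library at a time gave 1084 to 2393 bins.

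For the start bins called between pm, T2 and T3, a mean of 20 molecules gave 78 in T2 against pm and 99 in T3 against T2, limma-trend gave 275 in T3 against T2, and a fit of only the libraries compared gave 64 in T2 against pm. Leaving out 1 library at a time gave 37 to 160 in T2 against pm, 8 to 84 in T3 against pm and 38 to 196 in T3 against T2.

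For the regions called from molecules that start elsewhere, a mean of 20 molecules gave 35 in T1 against pm, 11 in T2 against T1 and 81 in T3 against T1, and no filter gave 31 in T2 against T1. Scaling by the total gave 91, 65 and 275 in the same order, TMM scaling gave 196 in T3 against T1, and limma-trend gave 10 in T2 against T1 and 200 in T3 against T1. Leaving out molecules within 300 nt gave 29 in T1 against pm and 72 in T3 against T1. Molecules upstream of every early meiotic start gave 28, 11 and 69, and fits of only the libraries compared gave 101, 2 and 262. Leaving out 1 library at a time gave 7 to 135 in T1 against pm, 0 to 46 in T2 against T1 and 18 to 213 in T3 against T1. With a lone sample in a stage, that sample is assumed to vary like the other stages.

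Deviations of samples of the same number had no positive correlation above 0.11 across 11405 bins. The correlations were -0.27 between pm and T1, -0.20 between pm and T2 and -0.25 between T1 and T2. They were -0.07 between T1 and T3, and 0.11 for both pm and T3 and T2 and T3. Whether samples of the same number share more than a number cannot be told from these values. The fit with the replicate block gave 133 start bins in T2 against pm, 51 in T3 against pm and 141 in T3 against T2, and 37 regions in T1 against pm, 9 in T2 against T1 and 110 in T3 against T1.

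The median T1 length was 1006 nt with each pair of ends counted once and 924.5 nt as the mean of the 2 library values with each bin weighted equally. With a partner limit of 2 CPM, 124 bins were sole. Antisense starts were found in 243 bins at 2 CPM and in 80 at 10 CPM. The share of molecules at the commonest 5′ position, 18.2%, was 40.4% within 5 nt, and 18.2% and 20.0% from T1 replicate 1 and T1 replicate 2 alone. Of 144 alternative values, 82 moved by less than the limits set and 62 moved, judged for calls by their total number. The balance of higher and lower calls turned in T3 against pm without either T3 replicate, and in T2 against T1 with the replicate block, without either T3 replicate and without T2 replicate 1. The cause of these changes was not tested.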
